A study of Homo sapiens with 9 samples.

Results

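ABTB1, SCN4A, RAB37, FURIN and NOL4L were among the genes whose RNA fell furthest in Ramos cells by 6 h in the GSK-3 inhibitor CHIR99021. They were chosen by their measured fall, so their levels and fold changes are given as a description and carry no test. They are 5 of the 60234 gene identifiers in the count table and 5 of the 15847 genes with enough reads to be tested. Each symbol matched 1 identifier, ENSG00000114626 for ABTB1, ENSG00000007314 for SCN4A, ENSG00000172794 for RAB37, ENSG00000140564 for FURIN and ENSG00000197183 for NOL4L.

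Ramos is a B cell line from a Burkitt lymphoma without EBV. The untreated cells (agent labelled control) make up the 0 h group, and the other groups received 3 µM CHIR99021 and were collected after 3 h or 6 h, with biological triplicates and 9 libraries in all. All groups are the same line in the same medium, and no untreated culture was collected at 3 h or 6 h, so treatment and time cannot be told apart. Levels are read counts scaled to library size with TMM factors (CPM), given per library or as the mean ± SD of 3 libraries, and a log2 fold change carries its standard error (SE).

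The 5 genes encode unrelated proteins. FURIN is the proprotein convertase of the trans-Golgi network, which cuts growth factor, receptor and protease precursors after basic residues, and in lymphocytes it processes TGF-beta among others. RAB37 is a small GTPase of secretory vesicles, in the same branch of the RAB family as RAB26. SCN4A is the pore-forming alpha subunit of the voltage-gated sodium channel of skeletal muscle, Nav1.4. ABTB1 carries ankyrin repeats and BTB domains, the domain by which many proteins dock on the ubiquitin ligase scaffold cullin 3. NOL4L, nucleolar protein 4 like, is known mainly as a fusion partner of RUNX1 and PAX5 in leukaemia. GSK-3 is a kinase that marks MYC and beta-catenin, among many proteins, for degradation.

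Promoter windows from RefSeq (GRCh38.p14, 250 bases before to 50 after a start) were held for 2 of the 5, FURIN with 4 windows and NOL4L with 2. ABTB1, SCN4A and RAB37 had no entry. The windows below are shown because each holds the most kinds of searched motif among its gene's windows. Capitals mark the matches to the E-box of E proteins (CAGGTG, reverse CACCTG) and to the GC box (GGGCGG, reverse CCGCCC). The FURIN window is chr15:90871918-90872217 on the plus strand, and the NOL4L window is chr20:32585284-32585583 on the minus strand.
FURIN: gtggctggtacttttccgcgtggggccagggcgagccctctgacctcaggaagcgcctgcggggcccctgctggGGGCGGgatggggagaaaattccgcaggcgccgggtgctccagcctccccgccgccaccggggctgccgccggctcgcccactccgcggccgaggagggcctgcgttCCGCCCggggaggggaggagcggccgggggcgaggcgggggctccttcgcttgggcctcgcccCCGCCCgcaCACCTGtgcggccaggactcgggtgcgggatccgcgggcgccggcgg
NOL4L: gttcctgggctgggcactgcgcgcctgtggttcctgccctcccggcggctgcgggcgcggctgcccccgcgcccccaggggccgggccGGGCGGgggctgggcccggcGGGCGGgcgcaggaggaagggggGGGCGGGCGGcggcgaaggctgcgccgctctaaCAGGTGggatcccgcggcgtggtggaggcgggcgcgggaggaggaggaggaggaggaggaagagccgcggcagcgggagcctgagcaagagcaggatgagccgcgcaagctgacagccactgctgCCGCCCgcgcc

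The GC content was 78.3% in the FURIN window and 79.0% in the NOL4L window, against a median of 58.7% over all 35116 windows of the same length, and they held 37 and 36 CG pairs against a median of 14. A choice by motifs that include the GC box favours such windows. The other FURIN windows had 53.3%, 80.3% and 56.7% GC with 3, 44 and 8 CG pairs, and the other NOL4L window 82.0% with 33. The FURIN window had 1 E protein match, starting 3 bases after the start site, and 3 GC boxes. The NOL4L window had 1 E protein match, starting 86 bases before the start site, and 5 GC boxes, of which 2 overlap each other. Of all windows, 20.6% held the E protein motif on either strand and 45.0% held the GC box. None of the 6 windows of these genes held the MYC/MAX E-box CACGTG, the TCF/LEF motif ATCAAAG, the FOXO motif GTAAACA or the cyclic AMP response element TGACGTCA. Those letters stood in 7.26%, 2.62%, 3.42% and 1.85% of all windows, respectively. A match describes letters in a window and not a bound site, and its absence from these windows says nothing about the factor.

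Libraries held 46359911 to 52880876 reads in genes, so the floor set by 3 counts lay at 0.0516 to 0.0692 CPM. Untreated replicate 3 differed from untreated replicates 1 and 2 far beyond count noise, with a chi-square per degree of freedom of 32.6 and 29.2 against 1.75 between the other pair. The pairs ranged from 2.74 to 8.74 at 3 h, highest for those with replicate 6, and from 6.13 to 14 at 6 h, highest for those with replicate 10. The median log2 fold change over all tested genes was -0.01 at 3 h and 0.02 at 6 h. All 8 B cell markers were tested, and their summed level was 3430 to 3500 CPM at 0 h, 3270 to 3350 CPM at 3 h and 3560 to 3690 CPM at 6 h. The markers moved in both directions within that sum: at 6 h MS4A1, MME and CD79A were among those higher (1.94-fold, 1.68-fold and 1.48-fold) and BCL6, CD22 and PAX5 were lower (1.95-fold, 1.6-fold and 1.6-fold). The summed level of the 6 T and NK cell markers was 0.148 to 0.179 CPM at 0 h, 0.0196 to 0.0643 CPM at 3 h and 0.0231 to 0.0438 CPM at 6 h, with CD3D and CD2 at 0 in all libraries; the part of those few reads in the results was not tested. The 6 myeloid markers summed to 0.0196 to 0.184 CPM and the 6 epithelial and fibroblast markers to at most 0.0358 CPM. In bulk RNA, fewer cells of a kind and less RNA per cell cannot be told apart.

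On the log2 scale, FURIN RNA fell mainly after 3 h. The 0 h libraries measured 4.01, 3.404 and 3.82 CPM, the 3 h libraries 2.06, 1.92 and 1.98 CPM, and the 6 h libraries 0.340, 0.306 and 0.369 CPM. No 3 h library reached the 0 h range and no 6 h library reached the 3 h range. The level was 1.88-fold lower at 3 h (log2 fold change -0.91, SE 0.108) and 11.0-fold lower at 6 h (log2 -3.46, SE 0.150). Thus 53.1% of the starting level was left at 3 h and 9.05% at 6 h. The 6 h value rests on 46 reads in 3 libraries, and the exact Poisson 95% interval of that count places the ratio of the 0 h to the 6 h mean between 8.29 and 15.1, for counting error only.

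RAB37, the most abundant of the 5 per length of exon, also had most of its fall on the log2 scale after 3 h. In CPM, 46.3% of the starting level was left at 3 h and 6.73% at 6 h. Its level was 69.7, 72.5 and 72.0 CPM at 0 h, 34.9, 31.5 and 32.8 CPM at 3 h, and 5.15, 4.46 and 4.82 CPM at 6 h. The groups did not overlap, and the 3 libraries of each group lay close together. The level was 2.16-fold lower at 3 h (log2 -1.11, SE 0.0564), 14.8-fold lower at 6 h than at 0 h (log2 -3.89, SE 0.0680) and 6.87-fold lower at 6 h than at 3 h (log2 -2.78, SE 0.0680). The last step was the largest fall between 3 h and 6 h among 11738 genes with a symbol and a mean of at least 1 CPM, and FURIN, 5.83-fold lower in that step, came next.

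SCN4A encodes a muscle channel, yet it was well above the detection limit in this B cell line. It measured 27.8, 29.4 and 26.3 CPM at 0 h, 5.04, 5.13 and 4.65 CPM at 3 h, and 1.45, 1.14 and 1.22 CPM at 6 h. All untreated libraries were high, and neither treated group overlapped another group. The level was 5.63-fold lower at 3 h (log2 -2.49, SE 0.0787) and 21.9-fold lower at 6 h (log2 -4.45, SE 0.0958), with 173 reads behind the 6 h mean. Skeletal muscle markers were near the floor: 8 of 9 listed markers were in the table, none was tested, and MYH2, MYH7, DES and CHRNA1 were at 0 in all 9 libraries. Their summed level was 0.0926 to 0.189 CPM at 0 h, 0.0391 to 0.0643 CPM at 3 h and 0.106 to 0.184 CPM at 6 h.

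ABTB1 fell the furthest of the 5 and ended near the detection limit. It measured 3.59, 3.95 and 3.60 CPM at 0 h, 0.750, 0.724 and 0.959 CPM at 3 h, and 0.128, 0.263 and 0.0922 CPM at 6 h. The 6 h libraries held only 6, 12 and 4 reads, against 194 to 230 reads per untreated library. The groups did not overlap. The level was 4.57-fold lower at 3 h (log2 -2.19, SE 0.164) and 22.7-fold lower at 6 h (log2 -4.50, SE 0.226). The count interval for the 22 reads at 6 h places the ratio of the means between 15.3 and 36.9, which contains the ratio of 21.9 of SCN4A. The order of ABTB1 and SCN4A is therefore not resolved at this depth. ABTB1 passed the filter on low counts through its 0 h and 3 h libraries. Of its 6 h libraries only replicate 10, with 12 reads, reached the cutoff, whereas the other 4 genes passed in every group.

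NOL4L had most of its fall behind it at 3 h. It measured 18.04, 18.7 and 16.5 CPM at 0 h, 2.64, 2.51 and 2.27 CPM at 3 h, and 1.36, 1.99 and 1.78 CPM at 6 h. The untreated libraries were far above all treated ones, while the highest 6 h library came close to the lowest 3 h library without reaching it. The level was 7.19-fold lower at 3 h (log2 -2.85, SE 0.106), 10.4-fold lower at 6 h than at 0 h (log2 -3.38, SE 0.114) and 1.45-fold lower at 6 h than at 3 h (log2 -0.53, SE 0.136).

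**Figure D1:**
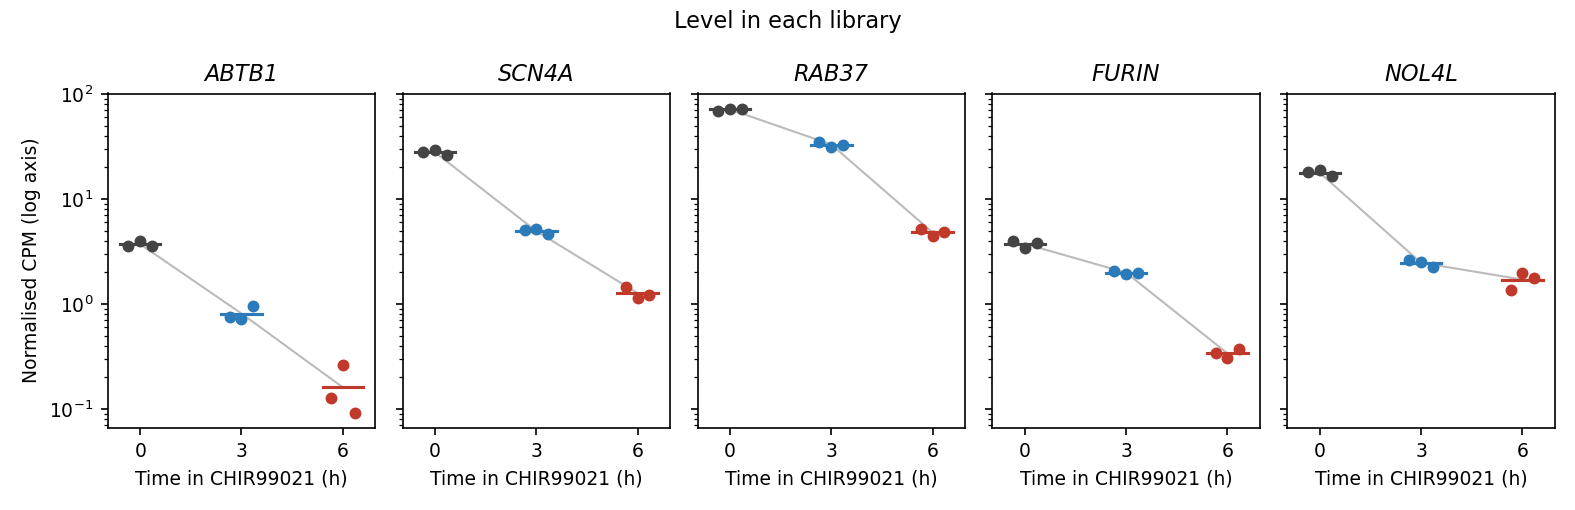
Level of each of the 5 genes in each library, in CPM on a log axis, for untreated cells and for both times in CHIR99021, with points for libraries, short bars for group means and a grey line joining the means. Within each gene no group of libraries overlaps another, and ABTB1 at 6 h has the widest spread, from 0.0922 to 0.263 CPM.

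All 5 genes were lower at 3 h than at 0 h and lower again at 6 h than at 3 h without overlap between libraries. The choice of falling genes favours this pattern, so it is given as a description only. Over all tested genes, 35.4% were lower without overlap at 3 h than at 0 h, 35.5% at 6 h than at 0 h and 28% at 6 h than at 3 h. Both steps were lower without overlap for 10.9% of tested genes. That pattern with a fall of at least 4-fold by 6 h was met by 249 genes (1.57%), and a fall of at least 4-fold by 6 h alone by 463 genes (2.92%). ABTB1, SCN4A and NOL4L were at least 4-fold lower already at 3 h, as were 1.67% of tested genes. ABTB1, RAB37 and FURIN were at least 4-fold lower at 6 h than at 3 h, as were 0.246%.

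The 5 genes divided their fall differently between the intervals. On the log2 scale, NOL4L had covered 84.3% of its 6 h fall by 3 h, SCN4A 56.0%, ABTB1 48.7%, RAB37 28.6% and FURIN 26.4%. NOL4L therefore ranked 7th of 11738 genes by its fall to 3 h but 809th by its fall from 3 h to 6 h. RAB37 and FURIN stood the other way, 630th and 944th at 3 h and 1st and 2nd from 3 h to 6 h. ABTB1 was 36th and then 3rd, and SCN4A 15th and then 10th. NOL4L had the largest fall of the 5 at 3 h, and at 6 h its fall (log2 -3.38) and that of FURIN (-3.46) differed by less than their SE, with the order turned without 6 h replicate 10 (-3.50 and -3.39).

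**Figure D2:**
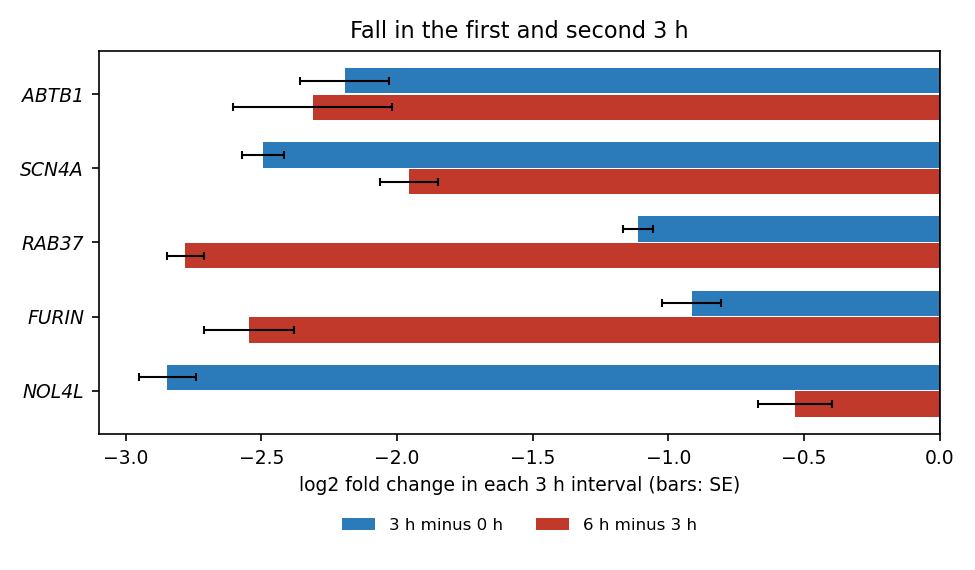
Log2 fold change of each gene at 3 h against 0 h and at 6 h against 3 h, with bars of 1 SE on each side. NOL4L changed by -2.85 and then by -0.53, and RAB37 by -1.11 and then by -2.78.

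Per kilobase of exon, RAB37 was the highest of the 5 at every time, at 14.1 CPM per kilobase at 0 h, 6.52 at 3 h and 0.948 at 6 h. SCN4A followed at 0 h with 3.38 CPM per kilobase, then NOL4L with 1.88, FURIN with 0.791 and ABTB1 with 0.604. No neighbours in that 0 h order overlapped, although FURIN (0.720 to 0.847) and ABTB1 (0.585 to 0.643) were close. Among tested genes with a length these 0 h levels lay at percentile 77.6 for RAB37, 46.7 for SCN4A, 36.9 for NOL4L, 25 for FURIN and 21.9 for ABTB1. At 6 h the order was RAB37, NOL4L (0.144 to 0.211 CPM per kilobase), SCN4A (0.138 to 0.175), FURIN (0.0648 to 0.0780) and ABTB1 (0.0150 to 0.0427). Only NOL4L and SCN4A overlapped in that order.

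The exons of all 5 genes were longer than the median of tested genes, 4122 bases. They spanned 9448 bases for NOL4L, 8243 for SCN4A, 6149 for ABTB1, 5074 for RAB37 and 4728 for FURIN. The GC content of the longest transcript was above the median of 48.1% in each, from 53.6% in NOL4L to 61.7% in FURIN, which lay at percentile 67.8 and 91.1 of tested genes. The genes lie on chromosomes 3 (ABTB1), 15 (FURIN), 17 (SCN4A and RAB37) and 20 (NOL4L).

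Ranked by the 6 h fall among the 11738 genes, ABTB1 was 3rd, SCN4A 4th, RAB37 6th, FURIN 14th and NOL4L 15th. The 10 other genes that fell more than NOL4L had log2 fold changes from -4.64 (BBC3, a proapoptotic BCL2 family member) to -3.49 (ABHD4, a lipase). Just below NOL4L at -3.38 came YPEL3 at -3.38, OPRL1 at -3.34 and WNT2B at -3.32, so the last of the 5 is not set off from the genes that follow it. YPEL3, of a small conserved family linked to cell cycle arrest, also had the profile next closest to 2 of the 5.

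Likeness of profile was measured as the root mean square difference of log2 CPM over the 9 libraries after centring on the 0 h mean, so a smaller value is more alike. FURIN was most like CALCOCO1, a coiled-coil autophagy receptor and coactivator, at 0.198, then YPEL3 at 0.218 and RAB37 at 0.304. CALCOCO1 measured 3.21, 1.62 and 0.338 CPM at the 3 times. RAB37 was most like FURIN at 0.304, YPEL3 at 0.319 and the collagen gene COL9A3 at 0.321. ABTB1 and SCN4A were 0.454 apart. SCN4A was still closer to C16orf86 at 0.370 and to SPTBN4, a beta spectrin known for anchoring sodium channels at the axon initial segment, at 0.415. NOL4L was most like DICER1-AS1 at 0.321, SPTBN4 at 0.382 and YPEL2 at 0.393, and was farthest from FURIN at 1.13 and RAB37 at 1.06.

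The remaining results concern genes related to the 5. The choice of the 5 did not use their values, but the lists were drawn up with earlier results of these data known. The related genes were tested with edgeR's quasi-likelihood test over all 15847 genes. Of 96 related genes in 6 lists, 58 had enough reads. At 6 h against 0 h, 17 were higher, 23 were lower and 18 did not pass, while 35.7% of all tested genes were higher and 35% lower. With upper-quartile factors 14 were higher and 31 lower, and with library size alone 11 and 34. At 3 h 18 were higher and 27 lower, against 32.8% and 33.5% of all tested genes, and from 3 h to 6 h 12 were higher and 14 lower, against 21.5% and 21.9%. In either direction 66.3% of all tested genes passed at 3 h, 70.8% at 6 h and 43.4% from 3 h to 6 h. The median log2 fold change of the 58 at 6 h was -0.10.

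FURIN belongs to a family of which few other members were measured. Of 8 other convertases, 3 were tested. At 6 h 2 were lower, none was higher and 1 did not pass, against 35% lower and 35.7% higher of all tested genes. PCSK4, a convertase known from germ cells, fell from 7.63 ± 0.382 CPM (SD, n = 3 libraries) to 4.25 ± 0.218 at 3 h and 1.44 ± 0.200 at 6 h, 5.29-fold (log2 -2.40, SE 0.108, edgeR adjusted p = 2.1e-10). MBTPS1, the site-1 protease that cuts SREBP and ATF6, fell less, from 125 ± 6.31 to 110 ± 1.33 CPM (log2 -0.18, edgeR adjusted p = 0.00434). PCSK7, a broadly expressed convertase, measured 76.1 ± 3.07 CPM at 0 h and 83.7 ± 9.52 CPM at 6 h (log2 0.14, SE 0.0701, edgeR adjusted p = 0.0951). The sign of that difference turned to -0.01 with upper-quartile factors and to -0.10 with library size alone, and it passed without 6 h replicate 9 (log2 0.20) and with no filter (edgeR adjusted p of 0.0267 and 0.0297). PCSK1, PCSK2, PCSK5 and PCSK6 had from 0 to 12 reads per group of 3 libraries.

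Of 22 genes whose products are known substrates of furin, 16 were tested. At 6 h 7 were lower, 2 were higher and 7 did not pass, against 35% lower and 35.7% higher of all tested genes. The median log2 fold change of the 16 was -0.29. The insulin receptor gene INSR fell from 70.7 ± 8.67 to 32.3 ± 1.95 CPM, 2.19-fold (edgeR adjusted p = 3.83e-08). The membrane metalloprotease gene MMP14 fell 2.11-fold (edgeR adjusted p = 2.05e-05) and the semaphorin receptor gene PLXNB2 1.60-fold (edgeR adjusted p = 1.63e-07). ATP6AP2, an accessory subunit of the vacuolar proton pump, rose from 41.3 ± 0.899 to 62.4 ± 3.62 CPM, 1.51-fold (edgeR adjusted p = 3.74e-07), and its partner gene ATP6AP1 rose 1.2-fold (edgeR adjusted p = 0.0013), a call lost with upper-quartile factors and with library size alone (edgeR adjusted p of 0.0853 and 0.665). TGFB1, whose product is a classical furin substrate, was named after its values were seen. It measured 87.5 ± 5.78 CPM at 0 h and 84.6 ± 12.1 CPM at 6 h (edgeR adjusted p = 0.681), and was lower with library size alone (log2 -0.29, edgeR adjusted p = 0.0171). The number lower was 13 without untreated replicate 3, 11 with upper-quartile factors and 13 with library size alone.

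RAB37 lies in a list of 27 other secretory RAB GTPases and their effectors, of which 14 were tested. At 6 h 9 of these were lower, 3 were higher and 2 did not pass (median log2 fold change -1.01). Over all tested genes, 35% were lower and 35.7% higher. RAB26, its closest relative, fell from 6.96 ± 0.218 to 4.11 ± 0.136 and 2.86 ± 0.395 CPM, 2.44-fold by 6 h (log2 -1.28, SE 0.0989, edgeR adjusted p = 4.28e-08). RAB3D and RAB27A, GTPases of regulated exocytosis, fell 2.40-fold and 1.99-fold (edgeR adjusted p of 7.26e-10 and 6.41e-09). Effectors that tether RAB27 vesicles also fell. SYTL1 went from 137 ± 7.60 to 42.4 ± 1.85 CPM, 3.24-fold (edgeR adjusted p = 3.44e-11), and the priming factor gene UNC13D fell 2.61-fold (edgeR adjusted p = 1.26e-06). RAB8A, which serves constitutive traffic from the Golgi, rose 1.39-fold (edgeR adjusted p = 1.19e-06). The next genes, MYO5A, RAB3A, RAB11A and RAB11B, were named after their values were seen. MYO5A, the myosin motor of RAB27 vesicles, rose 1.63-fold (edgeR adjusted p = 0.00027), and RAB3A, of synaptic vesicles, 1.27-fold (edgeR adjusted p = 0.00562). The call of RAB3A was lost with upper-quartile factors and with library size alone (edgeR adjusted p of 0.0982 and 0.341). RAB11A and RAB11B, of recycling endosomes, did not pass at log2 0.01 and 0.08, and RAB11A was lower with those same scalings (log2 -0.14 and -0.23, edgeR adjusted p of 0.0149 and 0.000505).

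Few relatives of SCN4A were detected: of 12 other sodium channel subunits, 2 were tested, SCN8A and SCN3A, and neither passed at 6 h against 0 h. SCN8A, the neuronal channel Nav1.6, measured 5.37 ± 1.28, 3.90 ± 0.451 and 5.02 ± 1.02 CPM at 0 h, 3 h and 6 h (6 h against 0 h log2 -0.10, SE 0.185, edgeR adjusted p = 0.646). SCN3A measured 0.571 ± 0.0787, 0.274 ± 0.0883 and 0.582 ± 0.0808 CPM (log2 0.02, SE 0.238, edgeR adjusted p = 0.933). Both signs at 6 h turned in some settings. At 3 h both were lower (edgeR adjusted p of 0.048 for SCN8A and 0.00335 for SCN3A). The call of SCN8A was lost with limma-voom (adjusted p = 0.0516), and in edgeR without untreated replicate 1 or 2, without any 1 of the 3 h libraries or without 6 h replicate 11 (edgeR adjusted p from 0.0543 to 0.162).

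Of 26 other BTB proteins that work with cullin 3, the scaffold and its RING partner included, 22 were tested, and at 6 h 12 were higher, 4 were lower and 6 did not pass, against 35.7% higher and 35% lower of all tested genes (median log2 fold change 0.29). With library size alone 8 were higher and 8 lower, and with upper-quartile factors 11 and 7. ABTB2, the closest relative, rose from 0.184 ± 0.0434 CPM to 0.490 ± 0.0887 at 3 h and 0.925 ± 0.222 at 6 h, 4.96-fold (log2 2.31, SE 0.277, edgeR adjusted p = 4.15e-06), on 31, 72 and 126 reads. KEAP1, the adaptor that holds NRF2 for degradation, rose 1.78-fold (edgeR adjusted p = 1.01e-08), RHOBTB2 2.11-fold (edgeR adjusted p = 5.32e-10) and KCTD5 1.83-fold (edgeR adjusted p = 1.25e-09). BTBD9 rose 2.25-fold (edgeR adjusted p = 4.23e-07). KLHL22 fell 6.39-fold (edgeR adjusted p = 1.23e-07), from 1.42 ± 0.101 to 0.220 ± 0.0765 CPM. The other genes that fell, KLHL9, KLHL12 and BTBD2, did so 1.35-fold, 1.2-fold and 1.30-fold.

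NOL4, the closest relative of NOL4L, fell from 0.730 ± 0.146 CPM to 0.313 ± 0.0441 at 3 h and 0.368 ± 0.0624 at 6 h, 1.98-fold by 6 h (log2 -0.99, SE 0.241, edgeR adjusted p = 0.00224). Between 3 h and 6 h its difference did not pass (edgeR adjusted p = 0.549).

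**Figure D3:**
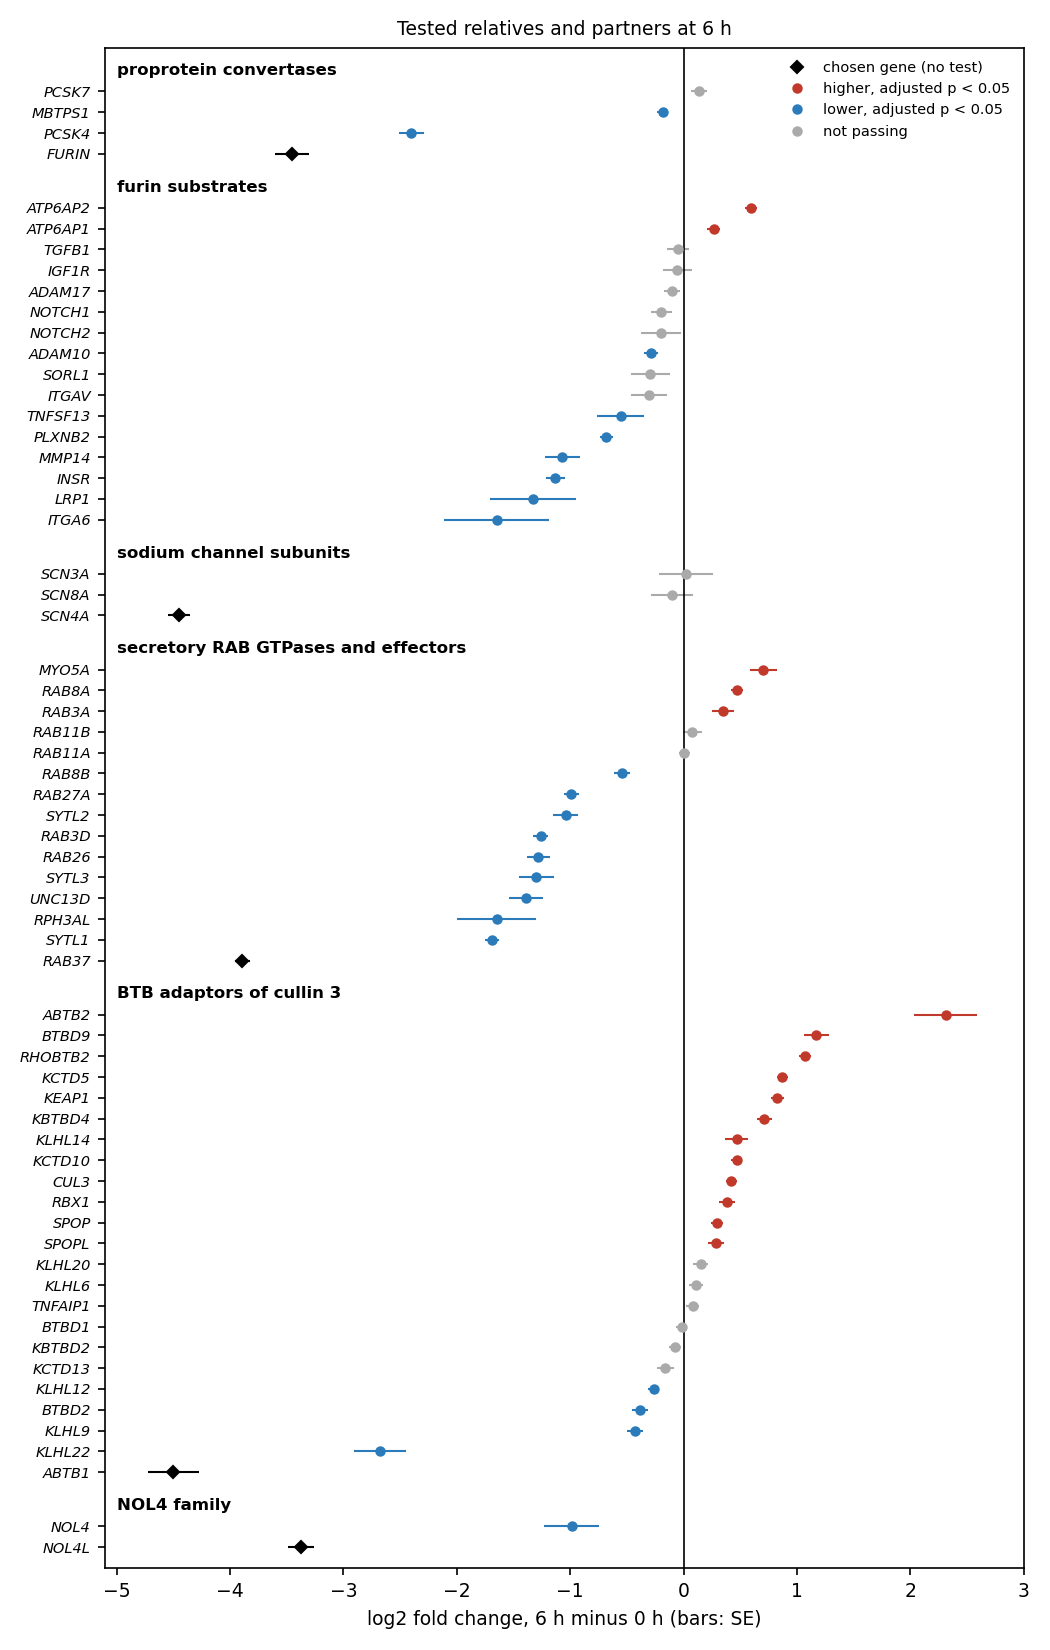
Log2 fold change at 6 h against 0 h of the tested related genes by list, with the 5 chosen genes marked apart. KLHL22 and PCSK4 have the largest falls among related genes, 6.39-fold and 5.29-fold, and ABTB2 the largest rise, 4.96-fold.

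The genes beside the 5 on their chromosomes were not used to choose them. Of 30 neighbours, 3 on each side of each gene in the RefSeq order, 29 were in the table and 21 were tested. At 6 h 7 were higher, 8 were lower and 6 did not pass, with a median log2 fold change of -0.00293 and a range from -1.79 to 1.99. Of all tested genes, 35.7% were higher and 35% lower. With upper-quartile factors 5 neighbours were higher and 10 lower, and with library size alone 3 and 12. The largest rise was that of SEC61A1, the translocon pore subunit beside ABTB1, from 130 to 518 CPM (3.98-fold, edgeR adjusted p = 1.21e-12). CD79B, the B cell receptor chain gene next to SCN4A, measured 384 CPM at 0 h and 423 CPM at 6 h (edgeR adjusted p = 0.0851), a difference that passed without untreated replicate 3 or 6 h replicate 10 (edgeR adjusted p of 0.0019 and 0.0311), and with no filter (0.0163), and was slightly below 0 with upper-quartile factors and with library size alone (log2 -0.01 and -0.10).

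Of the 5 tested neighbours of FURIN, 3 fell, while 35% of all tested genes were lower at 6 h. The 3 were MAN2A2, a Golgi mannosidase gene, 2.49-fold lower (edgeR adjusted p = 2.46e-10), CRTC3, a CREB coactivator gene, 2.35-fold (edgeR adjusted p = 3.09e-07), and HDDC3, 1.68-fold (edgeR adjusted p = 2.88e-07). FES, which lies directly next to FURIN, was too low to test at 0.222, 0.148 and 0.176 CPM. Beside NOL4L, the methyltransferase gene DNMT3B fell 2.22-fold (edgeR adjusted p = 1.38e-09), and C20orf203 fell from 0.312 to 0.0869 CPM on few reads (52 and 12, edgeR adjusted p = 0.00325), while ASXL1 was 1.16-fold higher (edgeR adjusted p = 0.0130). ASXL1 did not pass with upper-quartile factors, with library size alone (log2 -0.01) or in a fit of the compared groups alone (edgeR adjusted p of 0.343, 0.861 and 0.0534). Around RAB37, CD300LD and CD300E had no reads and CD300LF had 2.

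Whether reads were counted by strand is not given in the sources used here, and reads of overlapping antisense genes cannot be told apart from these genes. In GENCODE v29 no other gene overlapped ABTB1, SCN4A or FURIN. RAB37 shared 17 exon bases with the antisense gene SLC9A3R1-AS1, which measured 5.80, 5.58 and 4.70 CPM at the 3 times. NOL4L shared 190 exon bases with an antisense gene that had 10, 1 and 2 reads per group. It also shared 42 exon bases with another antisense gene, which was not in the count table, so reads of that gene cannot be seen.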

How the data were processed

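Total RNA of 9 Ramos libraries was sequenced. The deposited table holds unnormalised counts of reads for each Ensembl identifier, as the authors' counter gave them. Per the submitters' processing notes, GSNAP, HTSeq 0.6.0, limma 3.30.0 and build hg19 were used. The annotation release and the strand setting are not given in the sources used here.

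The table's 60234 identifiers were kept and 5 summary entries set aside. Reads in genes made up 67.6% to 70.9% of each library, reads without a feature 15% to 17.6%, ambiguous reads 2.53% to 2.76% and reads not uniquely aligned 9.89% to 11.7%. Symbols came from a gene name table (39539 identifiers). Exon lengths, GC contents and overlaps came from GENCODE v29, and neighbours and promoters from RefSeq, both on GRCh38, so no hg19 position is given.

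Counts were fitted in R 4.3.3 with edgeR 4.0.16 (filterByExpr, minimum count 10 and minimum total 15, TMM, robust quasi-likelihood, 1 mean per group over 9 libraries, 6 residual degrees of freedom). That left 15847 of 28412 genes with any count, and the biological coefficient of variation was 6.53%. TMM factors averaged 1.11, 0.962 and 0.940 at 0 h, 3 h and 6 h. Tests were two-sided, with Benjamini-Hochberg adjustment over all tested genes and a threshold of 0.05. The procedure was tested on simulated data.

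The members and lists were chosen with earlier results of these data known. Named beside the 5 genes were, by rule, up to 6 genes of each related list with the smallest p at 6 h, the closest relatives, 3 chromosomal neighbours a side, the 3 most alike genes and the 5 next in rank. The text gives some of these, others are not reported here, and TGFB1, MYO5A, RAB3A, RAB11A, RAB11B, KLHL9, KLHL12, BTBD2, NOTCH1 and KBTBD2 were named outside it after their values were seen. The alternatives changed the tool (DESeq2 1.42.0, or voom in limma 3.58.1), the scaling (size factors of DESeq2, upper quartile, or none beyond library size), the filter (none, or 1 CPM in 3 libraries) and the libraries fitted (compared groups only, or each library left out in turn). Python 3.11.15 with matplotlib 3.10.9 made the figures.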

Additional observations from a re-analysis of the deposited data

How the results depend on the processing

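The replicate numbers of the 3 groups (1 to 3, 5 to 7 and 9 to 11) do not state whether cultures were paired across times. No paired analysis was therefore run.

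The 5 genes were lower in all 3 comparisons in the main fit and in each of 17 other settings. The log2 fold change at 6 h against 0 h ranged from -5.03 to -4.24 for ABTB1, -4.69 to -4.37 for SCN4A, -4.13 to -3.83 for RAB37, -3.69 to -3.39 for FURIN and -3.61 to -3.23 for NOL4L. The ABTB1 extremes came from leaving out single 6 h libraries, which hold few reads. From 3 h to 6 h ABTB1 ranged from -2.85 to -2.05 and NOL4L from -0.66 to -0.39.

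Scaling moved several values by more than the spread between replicates. That spread was the root of the summed squares of the compared groups' SDs of log2 CPM. With upper-quartile factors the 3 h values were -2.65 for SCN4A, -1.27 for RAB37, -1.07 for FURIN and -2.998 for NOL4L, and the 6 h value of RAB37 was -4.04. With library size alone the 3 h values were -2.70, -1.31, -1.12 and -3.05 for the same genes, and the 6 h values were -4.69 for SCN4A, -4.13 for RAB37 and -3.69 for FURIN. These scalings shift all genes: the median log2 fold change of all tested genes was -0.17 at 3 h and -0.13 at 6 h with upper-quartile factors, and -0.22 at both with library size alone. Genes called higher were then 3852 against 6854 lower at 3 h and 4352 against 6736 at 6 h with upper-quartile factors, and 3468 against 7451 and 3656 against 7504 with library size alone. By TMM they were 5201 against 5304 and 5660 against 5553.

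At 6 h against 0 h, PCSK7 turned from 0.14 to -0.0075 with upper-quartile factors and to -0.0959 with library size alone. SCN3A turned to -0.121, -0.210 and -0.00571 with upper-quartile factors, with library size alone and in a fit of the compared groups alone. Leaving out each library, SCN3A ranged from -0.0431 to 0.141 and SCN8A from -0.287 to 0.0253. ATP6AP1, higher by TMM (log2 0.26), did not pass with upper-quartile factors (0.116) or library size alone (0.0270). RAB3A did not pass with them either (0.197 and 0.108). RAB11A, at 0.00606 by TMM, turned to -0.142 and -0.231 with these scalings, to -0.0349 with the filter of 1 CPM in 3 libraries and to -0.0241 in a fit of the compared groups alone, and RAB11B turned from 0.0783 to -0.0708 and -0.159. Leaving out each library, RAB11A ranged from -0.028 to 0.0511 and TGFB1 from -0.171 to 0.022. NOTCH1, KBTBD2 and TGFB1, short of the threshold at 6 h by TMM, were lower with library size alone, and NOTCH1 and KBTBD2 also with upper-quartile factors, with 1 CPM in 3 libraries and without untreated replicate 3. NOTCH1 also passed with no filter and without 6 h replicate 10, and RAB11B was higher without untreated replicate 3. Of the named related genes, those not mentioned here kept their direction and their side of the threshold at 6 h in the settings run. Totals of calls in both directions, over all genes, related genes and neighbours, stayed within 1.5 times, but with library size alone genes called higher at 6 h fell from 5660 to 3656 and related genes called higher from 17 to 11. Depth limits ABTB1 and FURIN most, with 22 and 46 reads at 6 h.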

Other observations

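A few related genes did not move in 1 direction. They were picked after their values were seen, so only values are given here. The tests of SCN3A and the calls of NOTCH1 and KBTBD2 by setting stand above. The furin substrate gene NOTCH1 measured 52.5 ± 6.63 CPM (SD, n = 3 libraries) at 0 h, 77.3 ± 3.90 at 3 h and 45.9 ± 4.37 at 6 h. Its log2 fold change was 0.56 (SE 0.0902) at 3 h against 0 h and -0.75 (SE 0.0911) at 6 h against 3 h. KBTBD2, a BTB adaptor of cullin 3 that acts on a subunit of PI3 kinase, measured 47.1 ± 2.05, 66.4 ± 1.34 and 44.7 ± 0.602 CPM. SCN3A ran the opposite way at a low level, from 0.571 CPM to 0.274 and back to 0.582 CPM.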
